A study of Mus musculus with 12 samples.

Results

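RNA that came down with negative control IgG beads was compared with RNA of 2-cell mouse embryos that had not been precipitated. The comparison used 2 IgG libraries and 4 unprecipitated libraries, and its members were the genes at 1 CPM (reads of a gene scaled to a common library total) or more in at least 2 of these 6 libraries. Of 19390 genes listed, 13954 met this and 5436 did not. Among the members, 6948 were below 1 CPM in both IgG libraries and 87 were below it in all 4 unprecipitated libraries. At the edge of the rule, 975 genes were at 1 CPM in exactly 2 of the libraries and 1405 genes outside it in exactly 1.

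The study asked which RNAs associate with Eif1ad3, a translation initiation factor related gene of the 2-cell stage, by RNA immunoprecipitation and sequencing. The IgG embryos have the genotype label Eif1ad3_OE: as zygotes they received by injection 200 ng/uL of a synthetic transcript that encodes Eif1ad3 with a His tag, and 200 cells per replicate were lysed and incubated with magnetic beads carrying IgG. The unprecipitated group joins 2 Input samples, also Eif1ad3_OE, and 2 total RNA samples labelled WT. The matching His pulldown (2 libraries, Eif1ad3_OE) used the same procedure with an anti-His antibody and is given beside the comparison, outside the tests. The headings of the unprecipitated libraries, ni A, ni B, total A and total B, do not decide which pair is Input and which is total RNA, so the 4 were taken as 1 group and the headings are used here as names alone. Injected mRNA and the embryo's own transcript of Eif1ad3 are counted together. No label states that libraries A and B came from separate cultures, so the p-values measure the spread between these libraries, which may be technical.

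In RNA immunoprecipitation, beads coated with a nonspecific antibody measure the RNA that sticks to beads, tube or antibody without the bait. At the 2-cell stage the mouse embryo still holds mRNA stored in the oocyte and begins transcription of its own genome. Small nucleolar RNAs (snoRNAs) and the related guide RNAs of Cajal bodies are short structured RNAs, mostly cut from introns of host genes, that direct chemical modification of ribosomal and spliceosomal RNA in stable complexes with protein.

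Totals were 5925209 and 4678563 reads in IgG A and B, 15715664 to 25209070 in the unprecipitated libraries and 7917501 and 8364126 in the His libraries. The libraries were amplified by PCR without molecular identifiers, so a floor of 3 reads covers counting error only; it stood at 0.506 and 0.641 CPM in IgG A and B and at 0.119 to 0.191 CPM in unprecipitated RNA. The 5 markers chosen for the 2-cell stage summed to 605 to 793 CPM in unprecipitated RNA and to 2.36 and 35.9 CPM in IgG A and B; the full list of 37 genes of the stage summed to 2414 to 3869 CPM and to 1054 and 2011 CPM, 1.94-fold lower in IgG. Of the 5 oocyte markers none was at 0 in IgG. Their sum was 10114 to 12927 CPM unprecipitated and 2613 and 3028 CPM in IgG. Nlrp5, Dppa3 and Btg4 were lower and Zp3 was higher. Gdf9 overlapped, at 981 to 1431 CPM unprecipitated and 1320 and 1538 CPM in IgG. The full list of 60 oocyte genes summed to 62736 to 85334 CPM and to 35179 and 38412 CPM, 1.93-fold lower in IgG.

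IgG beads carried reads for fewer genes than unprecipitated RNA. CPM are shares of a library, so the values do not give the amount of RNA on the beads, and fewer cells of a type and less RNA per cell cannot be told apart. IgG A and B had 5148 and 5564 genes at 1 CPM or more, the unprecipitated libraries 13110 to 13677 and the His libraries 12246 and 12270. With every library thinned at random to the smallest total, the counts were 5098 and 5564 in IgG and 13198 to 13736 in unprecipitated RNA, so the gap in depth moved them little. In IgG A and B, 356 and 445 genes took 50% of the reads assigned to listed genes, against 437 and 442 in His A and B and 508 to 646 in unprecipitated RNA.

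The absence of reads followed the level of the gene in the embryo. Of 2987 genes at 10 to 30 CPM in unprecipitated RNA, 56.5% and 54.4% had 0 reads in IgG A and B, against 1.94% and 2.71% in His A and B. At 100 to 300 CPM the IgG shares were 14.4% and 11.9%, at 300 to 1000 CPM 2.04% and 1.84%, and all 105 genes at 1000 CPM or more had reads in both IgG libraries. The mean CPM over all genes of a bin was 1.65 times as high in IgG as in unprecipitated RNA at 10 to 30 CPM, and 0.819 times as high at 1000 CPM or more.

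**Figure D1:**
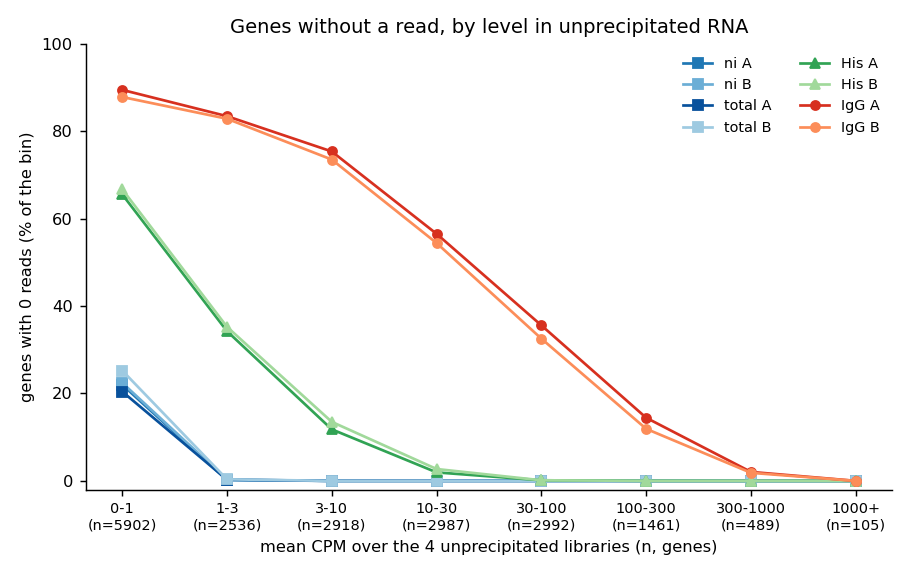
Share of genes with 0 reads in each of 8 libraries (vertical axis, %) in bins of mean CPM over the 4 unprecipitated libraries (horizontal axis); squares are unprecipitated, triangles His and circles IgG libraries. Both IgG lines lie above every other line up to 1000 CPM, with 56.5% and 54.4% at 10 to 30 CPM.

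The 2 IgG libraries differed in which genes they held. Of 3155 genes at 100 CPM or more in an IgG library, 781 (24.75%) had 0 reads in the other; in no pair of unprecipitated libraries was a gene at 100 CPM in one and at 0 in the other. Across listed genes, which are not independent replicates, Pearson's r of log2(CPM + 1) was 0.564 between IgG A and B and 0.956 to 0.990 between unprecipitated libraries. The cytoskeletal gene Actb shows this for 1 gene: it was at 0 in IgG A and 286 CPM in IgG B, against 145, 150, 252 and 328 CPM in unprecipitated libraries ni A, ni B, total A and total B. That difference did not pass the test (limma, adjusted p 0.190). Gapdh, a glycolytic enzyme gene, was at 13.8, 11.5, 10.6 and 14.2 CPM and at 30.7 and 24.6 CPM in IgG (log2 difference 1.08, adjusted p 0.0388; 0.304 with weights by group). The mean SD of log2(CPM + 1) over members was 1.26 between the IgG libraries and 0.409 among the unprecipitated ones; the median SD was 0.320 and 0.370, with many members at 0 in both IgG libraries.

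**Figure D2:**
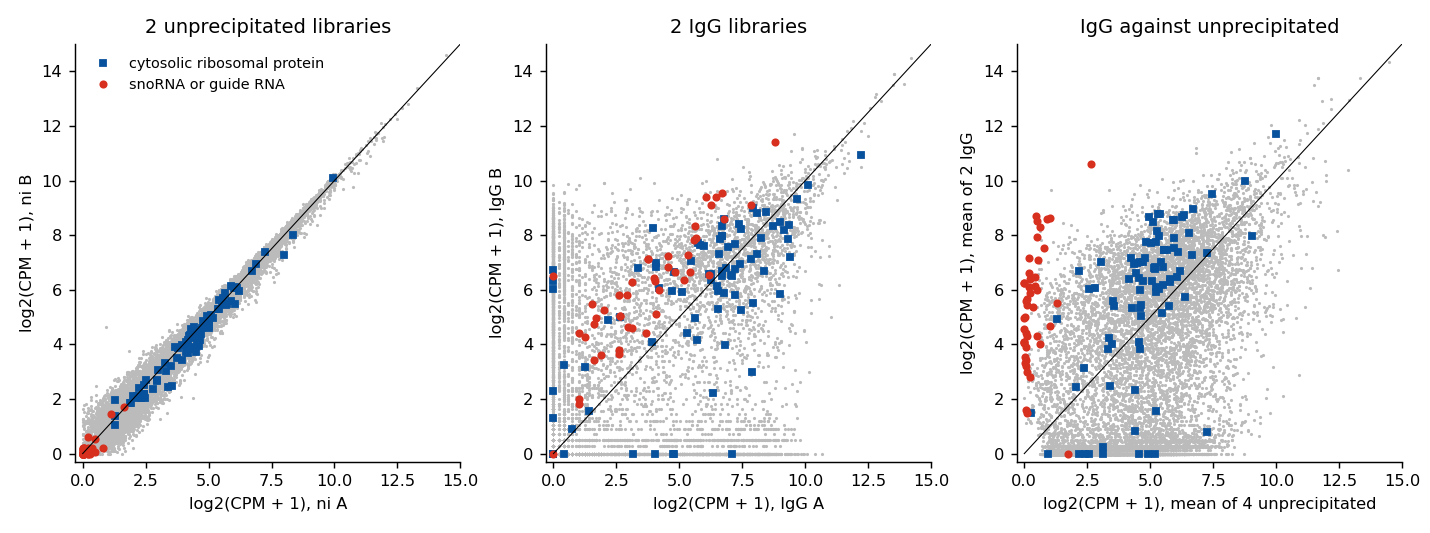
Levels of the 13954 members as log2(CPM + 1), for 2 unprecipitated libraries (left), the 2 IgG libraries (middle) and group means (right); each grey point is a gene and the line marks equal levels. Unprecipitated libraries lie along the line (r = 0.987 over members), IgG A and B scatter widely (r = 0.520), and snoRNAs and guide RNAs (red circles) stand above the line on the right, except Gm22723 at 0 in IgG.

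Across the 13954 genes, 8862 differed between IgG and unprecipitated RNA in limma at a Benjamini-Hochberg adjusted p under 0.05, which is 63.5% of those tested. Higher in IgG were 853 genes (6.11%) and lower 8009 (57.4%). Of the lower genes 5087 had 0 reads in both IgG libraries, and 6418 were below 1 CPM in both, so that they passed the filter through unprecipitated RNA alone. Single lower genes of that kind, and those at 1 CPM in only 1 IgG library, needed unprecipitated RNA to pass. They are described below with no test, and counts of lower genes in the lists include them. Both IgG libraries lay above all 4 unprecipitated ones for 1126 genes (8.07%) and below them for 8869 (63.6%). The median log2 difference of all tested genes was -1.93, and -1.59 with genes at 0 in a whole group set to the floor of 3 reads per library. Over the lists, setting such genes to the floor moved a median by at most 0.65. Quantile normalization, which gives all libraries 1 distribution, moved the median of all genes to 0.13, with 2572 genes higher and 2685 lower, and median rescaling moved it to -2.36 with 453 and 8879. The test assumes 1 spread for both groups; with a separate weight for each group, 274 genes (1.96%) were higher and 4545 (32.6%) lower. Against the ni pair alone 507 genes were higher and 7131 lower, and against the total pair alone 393 and 7095.

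Small nucleolar and Cajal body guide RNAs took a larger share of the reads in IgG than in unprecipitated RNA. RefSeq classes 97 listed genes as snoRNA or guide RNA, a grouping made after the values were seen. Summed over all 97, they were at 11.5, 10.4, 40.1 and 29.7 CPM in ni A, ni B, total A and total B, at 202 and 215 CPM in His A and B, and at 1698 and 9276 CPM in IgG A and B. Both IgG libraries were far above the others, and IgG B was above IgG A for 44 of the 45 that passed the filter. Of those 45, 38 needed an IgG library to pass, so the filter set their direction and their values are given as a description with no test. Of the 7 that passed on unprecipitated libraries alone, 5 were higher in limma, beside 6.11% of all tested genes, and 2 did not pass: Snora57, at 0 in IgG A and 89.8 CPM in IgG B (adjusted p 0.327), and Gm22723, with no IgG read (adjusted p 0.127). DESeq2 called both, Snora57 higher (5.11, adjusted p 0.0105) and Gm22723 lower. Over all 97 listed, both IgG libraries were above all 4 unprecipitated ones for 56, below them for 5, and at 0 for 21; over all 19390 listed genes these were 6.17%, 55.7% and 52.6%. The summed level was 239 times as high in IgG as in unprecipitated RNA.

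Snora47, a guide for pseudouridine in ribosomal RNA, had the highest CPM of them in IgG. It was at 2.14, 2.26, 8.34 and 8.07 CPM in ni A, ni B, total A and total B, at 57.6 and 72.1 CPM in His A and B, and at 447 and 2704 CPM in IgG A and B. IgG, His and unprecipitated libraries did not overlap, with His in between. Its log2 difference was 7.66 (SE 0.94, limma adjusted p 0.000728), a fold of 303 between mean CPM. Snora23 had 0 reads in both ni libraries and 0.954 and 0.777 CPM in the total pair, against 66.2 and 673 CPM in IgG. Snora21 was at 0.172 to 1.59 CPM unprecipitated and at 87.8 and 679 CPM in IgG (7.11, adjusted p 0.000656). Snord118, the U8 RNA needed for processing of large-subunit ribosomal RNA, was at 0 to 0.318 CPM unprecipitated and 49.5 and 239 CPM in IgG. Snora23 and Snord118 are among those that needed an IgG library.

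Members with predicted-gene symbols were at similar levels; of those named, all but Gm25395 needed an IgG library to pass. Gm24119 was at 0.119 to 1.02 CPM unprecipitated, 10.6 and 8.34 CPM in His and 101 and 737 CPM in IgG. Gm25395, classed as a guide RNA, was at 0.0397 to 2.29 CPM unprecipitated and 228 and 555 CPM in IgG (7.59, adjusted p 0.000161). Gm22767 reached 108 and 384 CPM in IgG and Gm22748 reached 74.4 and 555 CPM. Gm24616, which had the largest log2 difference of all genes named by the rule (8.06), was at 184 and 1439 CPM in IgG and 0.238 to 2.42 CPM unprecipitated; it was not matched to RefSeq. Snord13 and the row LOC115490494 had identical values in every library, so reads of that pair cannot be assigned to either.

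The genes that hold these small RNAs were compared with them. In the RefSeq annotation of GRCm38.p6, used for neighbours alone since the files' build is GRCm39, 41 of the 45 lie within exactly 1 tested gene, counted on either strand, and these are 39 different genes. Of the hosts 2 (5.13%) were higher in IgG and 13 (33.3%) lower (6.11% of all tested genes were higher and 57.4% lower), with a median log2 difference of -1.29 beside -1.93. Snora47 lies in Zbed3, whose log2 difference was -0.13 (adjusted p 0.434), and Snora23 in Ipo7, a nuclear import receptor (0.14, adjusted p 0.895). Gm24289 lies in Tipin, a replication fork protein gene that was below 1 CPM in both IgG libraries. Snora21 lies in Rpl23, a ribosomal protein gene at 1.82 (adjusted p 0.0531). The RNAs span 70 to 343 nt, with a median of 133 nt. How reads that overlap a small RNA and its host were assigned is not given in the sources used here.

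**Figure D3:**
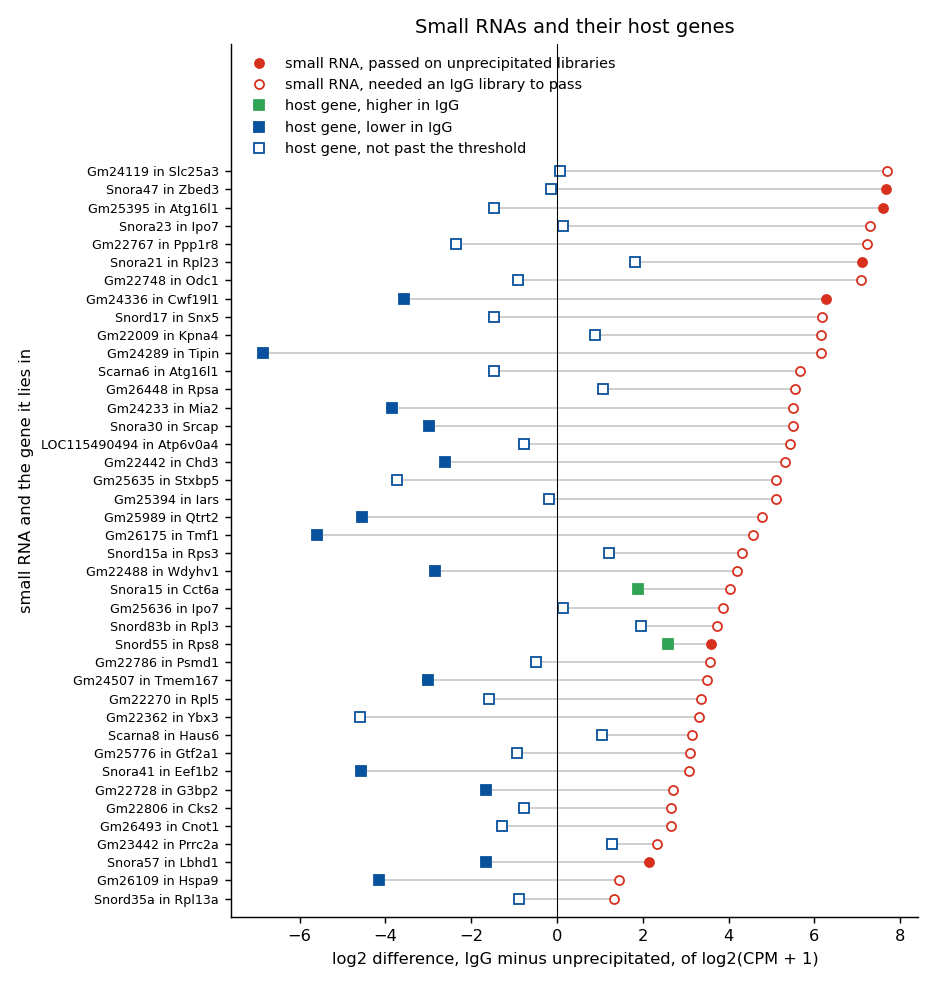
Log2 difference (IgG minus unprecipitated, horizontal axis) of 41 snoRNAs or guide RNAs (circles) and of the gene each lies in (squares, filled where past the threshold). Open circles needed an IgG library to pass the filter, which set their direction; 13 of 39 hosts were lower in IgG.

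Loci of microRNA hairpins were at low levels. Of 36 listed, both IgG libraries were above all 4 unprecipitated ones for 7 and below them for 4, and 26 were at 0 in both IgG libraries, beside 6.17%, 55.7% and 52.6% of all listed genes. The filter was passed by 6, of which 5 needed an IgG library and are described with no test; among them Mir8099-2 overlapped between the groups, at 0.793 to 1.15 CPM unprecipitated and at 13.7 and 0 CPM in IgG. The mature sequences of 3 are shown, from RefSeq with GRCm38.p6, because they carry a common stretch, with the seed (bases 2 to 8) in capitals.
mmu-miR-3473a: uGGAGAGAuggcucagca
mmu-miR-3473b: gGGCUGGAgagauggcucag
mmu-miR-5128: cAAUUGGGgcuggcgagauggcu
All 3 hold the 9-base run gagauggcu, and miR-3473a and miR-3473b share the 16-base run uggagagauggcucag, although no seed is common to the 3. Their rows count reads over a hairpin locus and not the mature arms, and reads of such similar loci may be exchanged between them. Mir3473b had 0 reads in all 4 unprecipitated and both His libraries and was at 5.91 and 25.4 CPM in IgG A and B, at least 101-fold higher against the floor of 3 reads per library. Mir5128 was at 0.214 to 1.02 CPM unprecipitated and 5.91 and 10.9 CPM in IgG. Mir3473a was at 0.119 to 0.718 CPM and at 1.86 and 10.5 CPM. Mir6236, which passed on unprecipitated libraries alone, was at 0.772 to 3.71 CPM and at 5.91 and 40.0 CPM (log2 difference 2.59, limma adjusted p 0.0276).

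Other noncoding RNAs were less far apart. Ribosomal 18S RNA, listed as Rn18s and Rn18s-rs5 with identical values, was at 867, 1000, 5026 and 6095 CPM in ni A, ni B, total A and total B and at 11905 and 15432 CPM in IgG A and B. IgG lay above all 4, but the ni and total pairs differed among themselves and the difference did not pass (2.58, SE 0.93, limma adjusted p 0.0523). Rn7sk, which holds the elongation factor P-TEFb inactive, was at 3.29 to 9.86 CPM unprecipitated and at 24.5 and 46.6 CPM in IgG (2.31, adjusted p 0.0104; 0.160 with weights by group). The nuclear speckle RNA Malat1 was at 5.40, 3.65, 6.74 and 4.42 CPM unprecipitated, 5.74 and 6.06 CPM in His and 48.8 and 111 CPM in IgG (3.65, SE 0.46, adjusted p 0.000869). Its His level fell within the unprecipitated range, unlike that of Snora47. Snhg15, a snoRNA host transcript, was at 8.29 to 25.5 CPM and at 245 and 187 CPM (3.72, adjusted p 0.00209; 0.0538 with weights by group). Of 19 tested long noncoding RNAs on the list, 4 were higher and 8 lower (6.11% of all tested genes were higher and 57.4% lower), or 1 and 2 with weights by group, with a median of -0.48 that reversed with quantile normalization (1.98).

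The most abundant RNAs on IgG beads were also abundant in the embryo. Zbed3, a maternal zinc finger gene, led both: it was at 22123, 25045, 19034 and 24459 CPM in ni A, ni B, total A and total B and at 18531 and 22801 CPM in IgG A and B. The ranges overlapped (log2 difference -0.13, adjusted p 0.434); the difference was -1.04 with median rescaling (adjusted p 0.0026) and 0.33 with DESeq2 (adjusted p 0.0392). The oocyte survival gene Bcl2l10 also overlapped, at 6372 to 8928 CPM unprecipitated and 8162 and 7716 CPM in IgG (0.08, adjusted p 0.700; -0.82 with median rescaling and -0.57 with quantile normalization), though it was higher against the ni pair alone (0.30, adjusted p 0.00767). Tcl1, a coactivator of the kinase Akt, was at 9679 to 10931 CPM and at 15513 and 11843 CPM (0.40, adjusted p 0.0227; 0.182 with weights by group), a difference whose sign turned with median rescaling (-0.51) and quantile normalization (-0.25). Its relatives Tcl1b1 (1731 to 4609 CPM unprecipitated; 11468 and 11568 CPM in IgG; 2.10, adjusted p 0.00446) and Tcl1b2 (1.47, adjusted p 0.0315) were higher, though not with weights by group (adjusted p 0.126 and 0.321), with reads of the family possibly divided between copies. The E3 ligase gene Siah2 was at 3913 to 4856 CPM and at 6065 and 6428 CPM (0.45, adjusted p 0.00948, and 0.291 with weights by group; -0.45 with median rescaling). Omt2b (0.95, adjusted p 0.119) and the securin gene Pttg1 (1.25, adjusted p 0.0901) completed the 10 highest and did not pass.

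Cytosolic ribosomal protein genes were the largest mRNA group on the higher side. Their 90 listed members summed to 3839, 3635, 6704 and 6380 CPM in ni A, ni B, total A and total B, 11508 and 11358 CPM in His and 17087 and 13361 CPM in IgG A and B, 2.96 times the unprecipitated mean. Of 88 tested, 35 were higher and 13 lower (6.11% of all tested genes were higher and 57.4% lower), and the median log2 difference was 1.27 beside -1.93 for all genes; with weights by group 8 were higher and 8 lower, beside 1.96% and 32.6% of all tested genes. Rplp0, of the ribosomal stalk, was at 970, 1089, 940 and 1103 CPM unprecipitated and 4755 and 1938 CPM in IgG (1.57, SE 0.35, adjusted p 0.00917; 0.339 with median rescaling). Rps2 was at 31.2, 28.1, 27.7 and 33.7 CPM and at 668 and 148 CPM (3.34, SE 0.68, adjusted p 0.00629). Rps10 was at 3.25 to 3.89 CPM and 148 and 55.1 CPM (4.35, adjusted p 0.000395). The group was not uniform, since 15 members had 0 reads in each IgG library. Rpl4, of the large subunit, was at 135 to 164 CPM unprecipitated and had 0 and 7 reads in IgG. It needed unprecipitated RNA to pass the filter and is given with no test. Rpl21 had no read in either IgG library and 26.6 to 45.3 CPM unprecipitated, at least 61.8-fold lower.

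**Figure D4:**
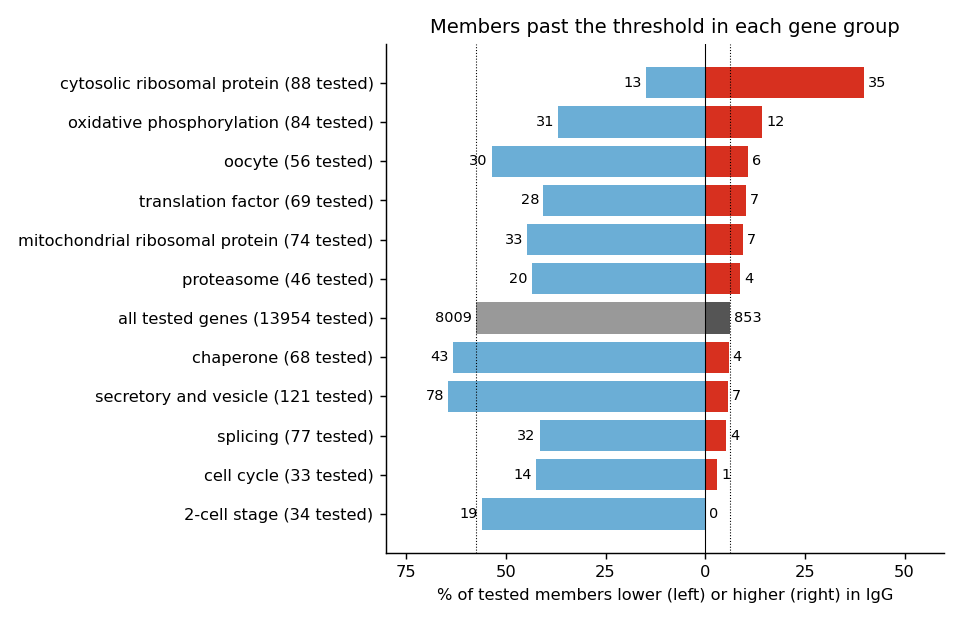
Percent of tested members past the threshold in each gene group, higher in IgG to the right and lower to the left, with the number of genes at the bar's end; dotted lines mark all tested genes (6.11% higher, 57.4% lower). Of the groups drawn, cytosolic ribosomal proteins (35 of 88) extend farthest to the right.

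The other translation and mitochondrial groups had counts closer to those of all genes, of which 6.11% were higher and 57.4% lower. Of 74 tested mitochondrial ribosomal protein genes 7 were higher and 33 lower (median -1.87; 0.32 with quantile normalization). Mrpl37 was at 54.7 to 71.1 CPM unprecipitated and 339 and 330 CPM in IgG (2.37, adjusted p 0.00234), while Mrps2 was at 82.1 to 100 CPM and had no IgG read, at least 157-fold lower. Of 84 genes of oxidative phosphorylation 12 were higher and 31 lower (median -1.01; 1.02 with quantile normalization). Ndufb7, a complex I subunit, was at 1.46 to 2.51 CPM and at 32.2 and 70.7 CPM (4.16, adjusted p 0.000241). Sdha, of complex II, was at 150 to 275 CPM and at 1.35 and 0.855 CPM in IgG. It needed unprecipitated RNA to pass the filter and is given with no test. Among 69 translation factors 7 were higher and 28 lower (median -1.36). The naming rule takes the highest and lowest members of a list, and here these included subunits of the eIF2B complex. Eif2b5, its catalytic subunit, was at 12.5 to 19.6 CPM and at 572 and 395 CPM in IgG (4.91, SE 0.46, adjusted p 0.000240). Eif2b1, the alpha subunit of that complex, was at 285 to 361 CPM and had 2 reads in IgG A and 0 in IgG B. It was 1695-fold lower with a counting interval of 469 to 13998 (95%, exact Poisson on the pooled IgG reads). Such an interval covers counting error only and not the spread between the IgG libraries. Of 46 proteasome genes 4 were higher and 20 lower (median -1.57; 0.056 with quantile normalization). Psmb5, a catalytic subunit, was at 6.43 to 10.6 CPM and at 87.6 and 58.6 CPM (3.08, adjusted p 0.000988).

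Transcripts of the 2-cell stage included members far below the unprecipitated level in IgG. Of 34 tested 2-cell genes 0 were higher and 19 lower in limma, beside 57.4% lower of all tested genes (17 with weights by group, beside 32.6%), with a median of -3.00. At an unadjusted limma p under 0.05 it was 0 and 22, with edgeR 0 and 17 and with DESeq2 2 and 20. Zscan4d, a telomere factor of early zygotic transcription, was at 229, 258, 310 and 241 CPM unprecipitated, 13.2 and 16.9 CPM in His and 1.01 and 10.5 CPM in IgG (-5.75, SE 0.76, adjusted p 0.0010). Zfp352 was at 162 to 214 CPM and had 0 and 2 reads in IgG, 1001-fold lower with a counting interval of 277 to 8263. Obox3, a homeobox gene, was at 104, 109, 170 and 109 CPM and at 0 and 16.5 CPM in IgG. It needed unprecipitated RNA to pass the filter and is given with no test. Eif1ad3 was at 109, 91.6, 185 and 111 CPM unprecipitated, 80.3 and 83.6 CPM in His and 1.35 and 30.8 CPM in IgG (-3.81, SE 1.07, adjusted p 0.0219; 0.0828 with edgeR, and 0.178 and 0.143 against the ni and total pair alone). Both IgG libraries lay below all others, but they differed from each other. Tcstv3 went the other way without passing, at 88.7 to 257 CPM unprecipitated and 717 and 207 CPM in IgG (1.31, adjusted p 0.149). Most of these genes belong to families of near-identical copies, so values of single members are uncertain.

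Oocyte-stored transcripts were divided, in shares near those of all genes (6.11% and 57.4%). Of 56 tested, 6 were higher and 30 lower, with a median of -2.62. Btg4, an adaptor for deadenylation of maternal mRNA, was at 5421, 5595, 5895 and 5284 CPM unprecipitated, 1732 and 1720 CPM in His and 27.0 and 184 CPM in IgG (-6.27, SE 0.70, adjusted p 0.000495). IgG was thus 52.6-fold below unprecipitated RNA in mean CPM. Nlrp5, of the subcortical maternal complex, was at 462, 533, 125 and 135 CPM and at 1.69 and 11.1 CPM (-5.48, adjusted p 0.00348; 0.0538 with weights by group). Dazl, an RNA-binding protein gene, was at 268 to 345 CPM and at 0.338 and 0.855 CPM. Dppa3, which protects maternal DNA methylation, was at 3185, 3039, 5591 and 4140 CPM and at 937 and 1087 CPM (-1.94, SE 0.27, adjusted p 0.00119; 0.0579 with weights by group). H1f8, the oocyte linker histone, was at 1631 to 3272 CPM and at 365 and 133 CPM (-3.37, adjusted p 0.00190). On the other side, Zp3, of the zona pellucida, was at 65.1, 66.5, 73.9 and 97.3 CPM and at 328 and 208 CPM (1.79, SE 0.43, adjusted p 0.0123). Zar1, an mRNA storage factor, was at 273 to 412 CPM and at 471 and 1001 CPM (1.10, adjusted p 0.0487). With weights by group Zp3 and Zar1 did not pass (adjusted p 0.128 and 0.249), and neither did any other oocyte gene on the higher side.

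The 12 largest differences on the lower side were abundant mRNAs with almost no IgG reads. The ranking favours such genes, since on log2(CPM + 1) the size of a negative difference is limited by the unprecipitated level. Asf1a, a histone chaperone, was at 348, 345, 446 and 526 CPM unprecipitated and 20.1 and 21.2 CPM in His, and had 0 reads in both IgG libraries, at least 726-fold lower. Pdhx, of the pyruvate dehydrogenase complex, was at 249 to 340 CPM unprecipitated and 194 and 252 CPM in His and likewise had no IgG read, at least 522-fold lower. His kept Pdhx near the unprecipitated level and Asf1a well below it. Ap3m1, of the AP-3 vesicle coat, and Nfu1, of iron-sulfur cluster assembly, were also at 0 in IgG, at least 477-fold and 464-fold lower. Cdo1, cysteine dioxygenase, was the most abundant of the 12, at 1595, 1644, 1959 and 2503 CPM unprecipitated and 2.70 and 9.83 CPM in IgG (-8.23, SE 0.51, adjusted p 9.57e-05). Marchf5, a mitochondrial ubiquitin ligase gene, was at 1140 to 1416 CPM and at 2.87 and 3.85 CPM (-8.15). Dnaja2, a cochaperone of Hsp70, was at 537 to 713 CPM and had 4 and 2 reads in IgG. Kcmf1 (-8.29, adjusted p 9.57e-05) and, with no test, Ccdc69, Adh5, Ranbp9 and Eif2b1 make up the rest. Those given with no test needed unprecipitated RNA to pass the filter. Among 1535 genes at 100 CPM or more in all 4 unprecipitated libraries, 33 had no read in either IgG library.

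**Figure D5:**
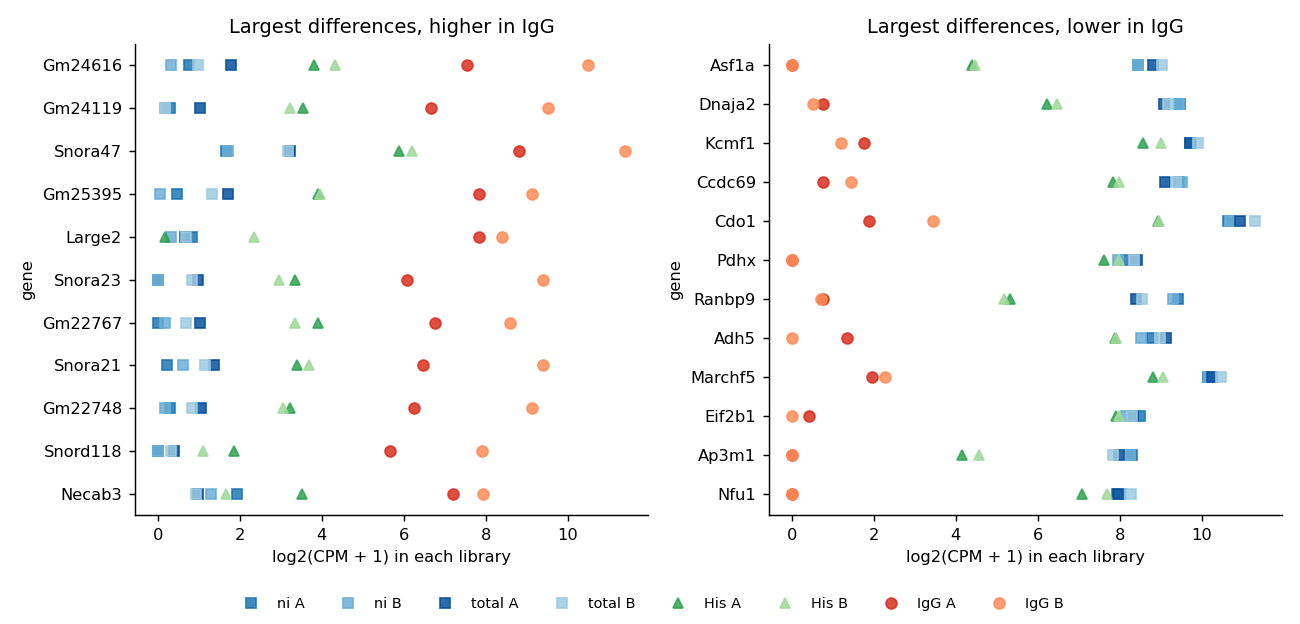
Level in each library, as log2(CPM + 1) on the horizontal axis, of genes with the largest differences, 11 higher (left) and 12 lower (right) in IgG; squares are unprecipitated, triangles His and circles IgG libraries. On the left both circles lie right of all squares, and on the right both circles lie left of them, with Asf1a, Pdhx, Ap3m1 and Nfu1 at 0 in IgG; most genes on the left needed an IgG library to pass the filter.

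Lists of housekeeping mRNAs held both directions, with shares on either side of those of all genes (6.11% higher, 57.4% lower) and no test of that difference. Of 68 chaperone genes 4 were higher and 43 lower (median -2.91). Among the highest and lowest members, which the naming rule takes, were the chaperonin subunits Cct6a and Cct3. Cct6a was at 30.7 to 42.0 CPM unprecipitated and 156 and 122 CPM in IgG (1.88, adjusted p 0.00953, and 0.111 with weights by group). Cct3 was at 192 to 236 CPM and had 2 and 0 reads in IgG. Cct6a hosts Snora15, which had no unprecipitated read. Of 121 secretory and vesicle genes 7 were higher and 78 lower (median -2.38). Sec22a, of vesicle fusion, was at 211 to 305 CPM with no IgG read, at least 450-fold lower, while Rab40c, a small GTPase gene, was at 29.3, 33.8, 9.23 and 12.1 CPM and at 505 and 340 CPM (4.42, adjusted p 0.00206; 0.0547 with weights by group). Of 77 splicing genes 4 were higher and 32 lower (median -2.11). Hnrnpl was at 30.9 to 38.6 CPM and at 259 CPM in both IgG libraries (2.84, adjusted p 0.00140), and Hnrnpd was at 88.2 to 126 CPM with no IgG read. Of 33 cell cycle genes 1 was higher and 14 lower (median -1.81), among them Fbxo5, an inhibitor of the anaphase-promoting complex, at 209 to 237 CPM and at 0 and 0.855 CPM. Cdc20, an activator of the same complex, was at 199 to 457 CPM and at 1512 and 380 CPM (1.27, adjusted p 0.140). Replication-dependent histones, whose mRNAs lack a poly(A) tail, had 5 higher and 8 lower of 23 tested, and 0 and 0 with weights by group; H4c3 was at 4.01 to 13.3 CPM and at 29.0 and 69.9 CPM (2.49, adjusted p 0.0191; 0.206 with weights by group), and the list median of 0.95 turned negative without either IgG library (-0.59 and -1.04).

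Some mRNAs were near absent in the embryo and abundant on IgG beads. Large2, a glycosyltransferase gene, was at 0.772, 0.238, 0.573 and 0.598 CPM unprecipitated, 0.120 and 4.04 CPM in His and 228 and 335 CPM in IgG. It needed the IgG libraries to pass the filter and is described with no test. Necab3 was at 0.897 to 2.79 CPM and at 146 and 242 CPM (6.29, adjusted p 9.98e-05). Unlike in Snora47, the lower His library of Large2 was no higher than the highest unprecipitated one. Over all members 216 needed an IgG library to pass, 112 of them among the 853 higher genes, whose direction the filter set. Of the 853, 731 were protein-coding in RefSeq, as were 12769 of all 13954 tested genes. Of the protein-coding genes 5.72% were higher, beside 6.11% of all tested genes.

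Markers of cells other than the embryo were examined in the same way, and their part in the results was not tested; counts are to be read beside the 6.11% of all tested genes that were higher and the 57.4% that were lower. Cdsn, a cornified-layer protein gene, was at 3.0, 3.73, 1.27 and 3.89 CPM unprecipitated, 0.478 and 0 CPM in His and 144 and 313 CPM in IgG (5.81, adjusted p 0.000213), whereas the keratinocyte marker Krt10 was at 0 in IgG. Over 51 listed keratin and cornified genes, 48 and 45 were at 0 in IgG A and B; 1 of 19 tested was higher and 14 lower (median -2.11; 0.18 with quantile normalization), and the sum was 290 to 347 CPM unprecipitated and 796 and 556 CPM in IgG. Prm2, a sperm protamine gene, was at 1.15 to 4.71 CPM and at 47.4 and 54.3 CPM (3.83, adjusted p 0.00106), while Prm1 was at 0 in both; of 5 tested sperm genes 1 was higher and 2 lower (median -1.23; 0.69 with quantile normalization), and 9 of 12 listed were at 0 in each IgG library. Blood and immune markers Cd74, Cd79a, Lyz2 and Hba-a1 were at 0 in both IgG libraries. In the longer list of 21, 19 were at 0 in each IgG library, 1 of 12 tested was higher and 7 lower (median -2.63), and the sum was 324 to 413 CPM unprecipitated and 303 and 341 CPM in IgG; Ighg2b, an immunoglobulin heavy chain gene, held most of it in IgG, at 303 and 268 CPM against 68.1 to 90.4 CPM (1.82, adjusted p 0.00670; 0.0994 with weights by group), and Ighg3 had no IgG read. Cumulus and granulosa genes summed to 590 to 739 CPM unprecipitated and 146 and 31.4 CPM in IgG, most of it unprecipitated from Serpine2, a protease inhibitor gene (508 to 675 CPM; 139 and 0.641 CPM in IgG), with 0 higher and 7 lower of 10 tested in limma (also at an unadjusted p; 0 and 5 with edgeR, 0 and 6 with DESeq2; median -1.73; 0.39 with quantile normalization); Has2, Tnfaip6, Foxl2 and Fshr were at 0 in IgG. Liver and pancreas genes had 3 tested, 1 lower and 1 higher, the latter admitted by its IgG values (median 0.31, turned negative with median rescaling, -0.59).

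Lists of genes of differentiated tissue held a few mRNAs of this kind. Of 46 extracellular matrix genes 2 were higher and 36 lower, beside 6.11% and 57.4% of all tested genes (median -2.09; 0.18 with quantile normalization). Nid2, of basement membranes, was at 4.20, 12.7, 3.31 and 3.23 CPM unprecipitated, 0 and 3.66 CPM in His and 156 and 244 CPM in IgG (5.03, SE 0.62, adjusted p 0.000776). Col7a1, the anchoring fibril collagen, was at 0.191 to 0.598 CPM, 7.17 and 9.35 CPM in His and 45.4 and 145 CPM in IgG; it needed the IgG libraries to pass. Of 83 ion channel and synaptic genes 2 were higher and 59 lower (median -1.57; 0.53 with quantile normalization), and of 57 olfactory, vomeronasal and taste receptor genes 12 were higher and 33 lower, 7 of the 12 having needed an IgG library to pass (median -1.53; 0.59 with quantile normalization). Symbols of predicted genes had 67 higher, of which 37 had needed an IgG library, and 394 lower of 699 (median -1.33; 0.69 with quantile normalization), and RIKEN clone symbols 23 higher, of which 8 had needed one, and 239 lower of 395 (median -1.48; 0.60 with quantile normalization). Some tested members, called or not, were below 1 CPM in both IgG libraries and had passed through unprecipitated RNA alone. These were 62 of the 83 ion channel, 38 of the 46 matrix and 40 of the 57 receptor genes. They were also 424 of the 699 predicted and 247 of the 395 RIKEN genes, beside 6948 of all 13954 tested genes.

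Gene size in the genome differed along the calls. Among protein-coding members matched to RefSeq, the median span from first to last base, introns included, was 12.8 kb for higher, 28.6 kb for lower and 22.6 kb for other genes (GRCm38.p6). With the genes split by span into 5 equal classes, 10.7% of the shortest and 2.19% of the longest class were higher, and 48.5% and 66.6% were lower. The median level in unprecipitated RNA was 11.8 CPM in the shortest and 17.6 CPM in the longest class, and the share at 0 in both IgG libraries was 38.8% and 41.9%. Transcript length was not analysed here.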

How the data were processed

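The members and gene lists were chosen with earlier results of these data known. The deposited table gives CPM (read counts scaled to library size) per gene for 8 libraries; per the submitters' processing notes, Trim Galore 0.6.7, FastQC, HISAT2 2.2.1, featureCounts 2.0.1, edgeR and the build GRCm39 were used, in roles not stated. A Smart-seq2 kit was used for the libraries, per the labels' protocols, and whether counting used strand is not given in the sources used here. The CPM values step in whole reads, from which read counts and totals were recovered. Listed genes held 95.6% to 98.1% of these totals.

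Genes at 1 CPM or more in at least 2 of 6 libraries were tested with limma 3.58.1 (R 4.3.3, lmFit and eBayes with trend) on log2(CPM + 1) of the authors' values, 2 IgG against 4 unprecipitated libraries, with Benjamini-Hochberg adjustment over all 13954 genes. Log2 differences are on that scale, so that changes of low genes appear smaller than they are; folds are ratios of mean CPM. The scripts were tested on simulated data. Alternatives were count models on the recovered reads (DESeq2 1.42.0, edgeR 4.0.16), other filters, pseudocounts, scalings and thresholds, leaving out libraries, and, added after seeing the data, library weights by group (limma arrayWeights). The test did not pair libraries by the letters A and B. Correlations of same-letter deviations were -0.020 to 0.003. Unprecipitated deviations were taken from the mean of all 4 libraries and so also hold the difference between the ni and total pairs. These correlations therefore cannot decide whether the letters pair libraries.

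Named genes are a panel of 14, the 12 largest differences in each direction (past the threshold, at a mean of 10 CPM or more in the higher group, groups not overlapping), up to 4 members of each list (the 2 highest and 2 lowest at a mean of 10 CPM or more), and the 10 highest in IgG, of which 1 gene is not reported here; snoRNAs, hosts, microRNA loci and cell markers named beside these were chosen after values were seen. RefSeq names matched 13848 of 13954 symbols (99.24%). Genes with 0 reads in a group are given as bounds against 3 reads per library.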

Additional observations from a re-analysis of the deposited data

Results flagged for a closer look

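In some sets of 4 unprecipitated libraries 1 library lay far from the other three, which chance gives in about 1 of 20 sets. The library total B was the highest for the summed secretory and vesicle genes (14306 CPM) and for Kcmf1 (954 CPM). The total pair also held the highest value of Obox3 (170 CPM), Gm24119 (1.02 CPM) and Ndufb7 (2.51 CPM) and the lowest of Siah2 (3913 CPM). Psmb5 was highest at 10.6 CPM, and Nid2 at 12.7 CPM in ni B. In each of these genes both IgG libraries still lay outside the range of all 4.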

How the results depend on the processing

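In the alternatives that leave all libraries in, IgG had more genes lower than higher. Genes called numbered 8862 as reported, 4884 with a filter of 10 CPM, 5233 where the mean had to reach 5 CPM, 5257 with quantile normalization and 4819 with library weights by group. Higher genes (853) numbered 1923 with DESeq2, 453 with median rescaling, 2572 with quantile normalization, 274 with weights, 507 and 393 against the ni and total pair alone and 491 at an adjusted p under 0.01. Lower genes (8009) numbered 4162 with the 10 CPM filter, 4487 with the mean filter, 2685 with quantile normalization and 4545 with weights. Leaving out 1 library gave 8090 to 11443 genes called, 627 to 2248 higher and 7463 to 9457 lower; higher genes were 2248 without IgG A and 1986 without IgG B, where the lone IgG library is assumed to vary like the others. The median of all genes (-1.93) was 0.13 with quantile normalization, -1.68 with 1 CPM in 1 library, -2.79 with the 10 CPM filter, -2.60 with the mean filter, -4.14 with DESeq2, -4.66 with edgeR, -2.36 with median rescaling, -4.03 and -0.82 with pseudocounts of 0.1 and 5, and -2.17 to -1.93 without 1 library. The cause of these shifts was not tested, apart from the filters: those of 10 CPM and of a mean of 5 CPM test fewer genes and that of 1 CPM in 1 library tests more.

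With the letter A or B as a replicate block, 8657 genes were called, 769 higher and 7888 lower. Whether libraries of the same letter belong together is not decided here.

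List medians changed sign as follows. With quantile normalization they were 0.32 for mitochondrial ribosomal proteins, 1.02 for oxidative phosphorylation, 0.0086 for replacement histones, 0.056 for proteasome, 0.59 for receptors of smell and taste, 0.53 for ion channels, 0.18 for extracellular matrix, 0.18 for keratins, 0.39 for cumulus, 0.69 for sperm, 1.98 for long noncoding RNA, 0.69 for predicted genes and 0.60 for RIKEN clones. Oxidative phosphorylation was 0.36 with the 10 CPM filter, 0.58 with DESeq2, 0.29 with edgeR and 0.14 with the mean filter. Replication-dependent histones were -0.060 with a pseudocount of 0.1, and -1.04 to 0.99 without 1 library (-0.59 without IgG A, -1.04 without IgG B). Proteasome was 0.027 and long noncoding RNA 0.26 with DESeq2; with the mean filter receptors were 1.62, sperm 0.17 and long noncoding RNA 0.61. Liver and pancreas was -0.45 with 1 CPM in 1 library, -0.59 with median rescaling and -0.20 to 0.82 without 1 library, the lowest without IgG A.

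Of single genes, Actb was -7.69 to 0.47 and Zbed3 -0.28 to 0.017 without 1 library, the highest without IgG A, Zbed3 was 0.33 with DESeq2 and 0.046 with edgeR, and Snora57 was -1.12 to 5.39 without 1 library, the lowest without IgG B. Tcl1 was -0.51 and -0.25, and Bcl2l10 -0.82 and -0.57, with median rescaling and quantile normalization; Bcl2l10 was -0.14 against the total pair alone and 0.30 against the ni pair alone, and Siah2 -0.45 with median rescaling.

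At 4678563 to 5925209 reads in IgG, 1 read was 0.214 and 0.169 CPM, so absence of reads does not show absence of an RNA below the floor of 3 reads (0.641 and 0.506 CPM). With 2 IgG libraries that differ from each other, values of single genes rest on few measurements.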
